A study of Homo sapiens with 8 samples.

Results

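Splicing factor genes were followed through 8 arrays of HT1080, a human fibrosarcoma cell line. The genes were chosen by a list of 53 names of SR proteins, heterogeneous nuclear ribonucleoproteins (hnRNPs) and other splicing factors, a list drawn up with results of these same arrays known. A probe set (the group of short probes that reads 1 stretch of a transcript) counted for a gene where the platform annotation gave it that gene alone, with older names such as SFRS6 read as SRSF6. Of the 53 genes, 50 had an expressed probe set of their own and could be measured, out of 8429 expressed genes on the arrays, and SRSF2, HNRNPH2 and DDX39B had only probe sets that the annotation shares with other genes.

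Each condition had 1 array, and the arrays' number limits the precision of every value here: no difference has a replicate check, an error or a p-value. Cells in normal medium received 10 µM compound C (CC), 10 µM versipelostatin (VST), 100 µM phenformin (Phen) or nothing (control), and cells in 10 mM 2-deoxy-D-glucose (2DG) received the same compounds at the same doses (2DG+CC, 2DG+VST, 2DG+Phen) or none (2DG). All cells were treated for 18 h, with each compound given just ahead of 2DG. 2DG is a glucose analogue that blocks glycolysis and protein glycosylation and so sets off the unfolded protein response (UPR), and the design asks how inhibitors of that response act. Compound C is a kinase inhibitor known for blocking AMPK, versipelostatin is a macrocyclic microbial product and phenformin is a biguanide that blocks mitochondrial respiration.

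Splicing factors decide which exons of a primary transcript are joined. SR proteins bind exonic enhancers and recruit the spliceosome, hnRNPs often bind silencers and keep exons out, U2-type factors define the branch point, and CLK kinases phosphorylate SR proteins and release them from nuclear speckles. Many of these genes regulate themselves: their transcripts carry poison exons or alternative last exons whose use sends the RNA to nonsense-mediated decay, so 1 gene can make RNAs that different probe sets read differently.

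The values are log2 intensities, and each difference is the log2 value on the treated array minus that on its comparison array, so that 1 stands for 2-fold. A probe set was expressed where it reached 6 on at least 1 array, a gene was represented by its brightest expressed probe set, and a member counted as higher or lower once it reached a 2-fold difference. The 4 comparisons with control share the control array and the 3 comparisons in 2DG share the 2DG array, so their values are set side by side only. Of the 50 measured members, 47 reached 6 on every array, the exceptions being TRA2A, DDX5 and CLK4. In RNA from a whole culture, fewer cells of a state and less RNA per cell cannot be told apart. As for the cell line, 6 of 7 mesenchymal markers were expressed (S100A4 was not), while 5 of 5 epithelial and 3 of 3 leukocyte markers stayed below the limit, at 1.83 to 3.48 and 1.89 to 3.20. The poly-A control transcripts were brighter than on the comparison array by 0.35 in 2DG, 0.10 in CC, 0.05 in VST, 0.28 in Phen, 0.87 in 2DG+CC, 0.50 in 2DG+VST and 0.32 in 2DG+Phen, and scaling on them lowers every difference by that amount. Positive differences below that size become negative on the poly-A scale. Its part in the results was not tested.

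Against control, the members' median lay below that of all genes with 2DG, CC, VST and Phen. With 2DG, 0 of 50 members were at least 2-fold higher and 3 were lower (SRSF6, SRSF7 and HNRNPA3), where 3.06% of all expressed genes were higher and 1.90% lower. With CC, 2 members were higher (the kinases CLK1 and CLK4) and 6 lower (SRSF7, TRA2A, HNRNPA2B1, HNRNPD, SFPQ and DDX46), against 3.88% and 2.70% of all genes. With VST, 0 were higher and 4 lower (SRSF1, SRSF6, SFPQ and DDX5), against 2.46% and 2.48% of all genes. With Phen, 0 were higher and 8 lower (SRSF1, SRSF6, SRSF7, TRA2A, HNRNPAB, SFPQ, PSPC1 and DDX5), against 2.66% and 2.17% of all genes. The members' median difference was −0.20 with 2DG, −0.33 with CC, −0.28 with VST and −0.45 with Phen, while that of all genes was 0.01, 0.04, −0.02 and −0.03 in the same order. On the poly-A scale the members' median was −0.55, −0.43, −0.33 and −0.73 in this order, that of all genes −0.34, −0.07, −0.07 and −0.31. The split of members higher and lower was then 0 and 9 with 2DG, where 1.36% and 5.81% of all genes were, 0 and 6 with CC (2.91% and 3.67%), and 0 and 11 with Phen (1.25% and 6.53%). With CC it was 1 and 6 when arrays were centred or quantile normalized. For Phen it was 1 and 7 with centring and 1 and 8 with quantile normalization.

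Within 2DG, most genes that moved were lower, while more of the listed members were higher than lower in 2DG+CC. Of 95 other splicing genes measured, 8 were higher there and 7 lower. In 2DG+CC, 14 of 50 members were at least 2-fold higher than in 2DG and 5 were lower, against 8.33% and 25.4% of all genes. The 14 were SRSF6, SRSF7, SRSF10, TRA2A, TRA2B, HNRNPA1, HNRNPA3, PTBP2, DDX5, LUC7L3, PNISR, SRRM1, RBM25 and CLK1, and the 5 were SRSF3, SRSF5, HNRNPA0, DDX17 and SF3B3. In 2DG+VST, 2 members were higher (SRSF7 and SRRM2) and 8 lower, against 4.09% and 20.0% of all genes. In 2DG+Phen, 4 were higher (SRSF7, HNRNPA1, PTBP2 and CLK1) and 11 lower, against 4.84% and 21.8% of all genes, so that the members' lower counts were near the general share with VST and Phen. The members' median was 0.42 in 2DG+CC, 0.01 in 2DG+VST and 0.10 in 2DG+Phen, beside −0.23, −0.18 and −0.26 for all genes, and on the poly-A scale the members' medians turned to −0.45, −0.49 and −0.22.

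These counts move with the scale. On the poly-A scale 3 members were higher and 13 lower in 2DG+CC, beside 2.25% and 54.3% of all genes, and the 3 were RBM25, PTBP2 and LUC7L3. The poly-A split was 0 and 12 in 2DG+VST, beside 1.59% and 35.4% of all genes, and 3 and 11 in 2DG+Phen, beside 2.76% and 31.4%. Centring each array gave 18 higher and 4 lower in 2DG+CC, beside 11.9% and 20.9% of all genes. It gave 7 and 6 in 2DG+VST, beside 7.33% and 14.8%, and 7 and 7 in 2DG+Phen, beside 8.65% and 15.2%, so that the members' counts there were near the general shares.

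**Figure D1:**
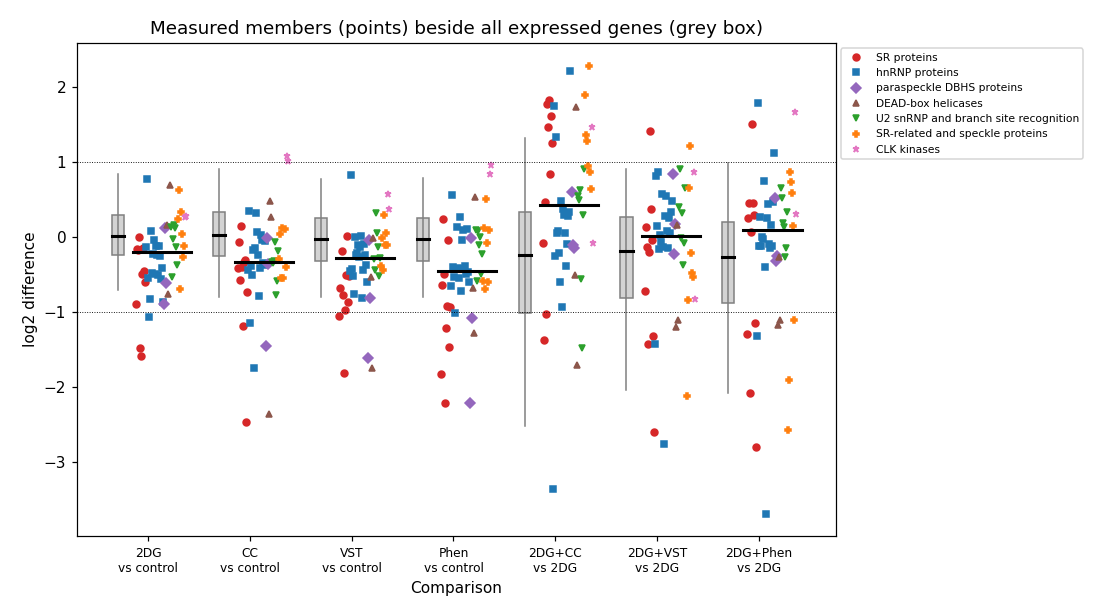
Log2 difference (vertical axis) of the 50 measured members in each of the 7 comparisons (horizontal axis), coloured by role, with a black line at their median; dotted lines mark 2-fold. The grey box holds all expressed genes between their 25th and 75th percentile, its whisker the 5th to 95th percentile and its black bar their median: the members' line is below that bar in the 4 comparisons with control (−0.45 against −0.03 with Phen) and above it in the 3 within 2DG (0.42 against −0.23 in 2DG+CC).

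Among the SR proteins, 10 of 11 were measured. Against control, 1 of the 10 lay above 0 and 9 below it with each of 2DG, CC, VST and Phen, where 48.3%, 46.7%, 51.9% and 52.5% of all genes lay below it. At least 2-fold lower were 2 with 2DG, 2 with CC, 2 with VST and 4 with Phen. The shares of all genes were 1.90%, 2.70%, 2.48% and 2.17%. In 2DG+CC, 5 were higher and 2 lower, in 2DG+VST 1 and 3, and in 2DG+Phen 1 and 4. The shares of all genes there were 8.33% and 25.4%, 4.09% and 20.0%, and 4.84% and 21.8%.

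SRSF1, the SR protein that gave the family its founding example, stood at 10.79 in 2DG+CC, 10.16 in 2DG+VST, 9.58 in 2DG+Phen and 10.87 in 2DG, and at 11.35 in CC, 10.71 in VST, 9.93 in Phen and 11.76 in control. Its array with Phen was the lowest in normal medium, −1.83 from control, with −1.05 for VST, and within 2DG it was again lowest with Phen, −1.29 from 2DG. Its 2 next brightest probe sets gave −2.01 and −1.45 with Phen, and a dimmer one went its own way in 2DG+CC at 2.41. SRSF6 (SRp55), another enhancer-binding SR protein, stood at 9.96 in 2DG+CC, 7.98 in 2DG+VST, 8.24 in 2DG+Phen and 8.18 in 2DG, and at 9.25 in CC, 7.84 in VST, 7.44 in Phen and 9.66 in control. The 2DG+CC, control and CC arrays were thus high and the other 5 lower, with differences of −1.47 for 2DG, −1.81 for VST and −2.21 for Phen from control, and 1.78 for 2DG+CC from 2DG. A second SRSF6 probe set gave −0.59, −1.48, −1.70 and 1.13 for these, all the same way but short of 2-fold with 2DG.

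SRSF7, an SR protein with a zinc knuckle, stood at 11.53 in 2DG+CC, 11.49 in 2DG+VST, 11.58 in 2DG+Phen and 10.07 in 2DG, and at 10.47 in CC, 10.68 in VST, 10.44 in Phen and 11.65 in control. Control and the 3 arrays with 2DG and a compound were high, and the 2DG array was the lowest of the 8. It differed by −1.58 in 2DG, −1.18 in CC, −0.97 in VST and −1.21 in Phen from control, and by 1.47, 1.42 and 1.51 in 2DG+CC, 2DG+VST and 2DG+Phen from 2DG. The next brightest SRSF7 probe set differed for CC, as it gave 0.07 in 2DG+CC while it gave 1.58 in 2DG+VST and 1.72 in 2DG+Phen. The third was higher with those compounds too (2.23 and 1.75) but gave 0.05, −0.31, 0.22 and −0.03 for 2DG, CC, VST and Phen from control, short of the lower values on the brightest. SRSF10, which represses splicing once it loses its phosphates, stood at 10.06 in 2DG+CC, 8.61 in 2DG+VST, 8.68 in 2DG+Phen and 8.23 in 2DG, and at 8.40 in CC, 8.23 in VST, 7.81 in Phen and 8.73 in control. Only its 2DG+CC array was 2-fold from its comparison, at 1.83, and its 5 probe sets did not move together there: 1.91 on a probe set nearly as bright, and 0.10, −0.26 and −0.48 on the others.

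SRSF5, an SR protein known for its response to insulin and growth signals, stood at 9.09 in 2DG+CC, 8.69 in 2DG+VST, 8.04 in 2DG+Phen and 10.11 in 2DG, and at 10.25 in CC, 9.34 in VST, 9.62 in Phen and 10.11 in control. It was lower than 2DG alone with all 3 compounds, by differences of −1.02 in 2DG+CC, −1.42 in 2DG+VST and −2.08 in 2DG+Phen. A dim probe set of SRSF5 ran opposite, at 6.44 in 2DG+VST and 4.89 in 2DG+Phen, while in 2DG it was not above background (under the median of its array, a limit chosen after seeing the data), so that it was at least 3.31 and 1.76 higher. It passed the expression limit through the 2DG+VST array alone. SRSF11, an SR-like protein, did not reach 2-fold on its brightest probe set, which stood at 10.74 in 2DG+CC, 9.87 in 2DG+VST, 10.20 in 2DG+Phen and 9.90 in 2DG, and at 9.74 in CC, 10.07 in VST, 10.02 in Phen and 10.05 in control. A second probe set gave −2.14 in 2DG+CC, and a dim one was at least 3.87 higher in 2DG+VST than in 2DG, where it was not above background, and passed the expression limit through that 1 array.

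TRA2A and TRA2B, the human counterparts of the fruit fly regulator transformer-2, activate exons with GA-rich enhancers. TRA2A stood at 9.39 in 2DG+CC, 6.46 in 2DG+VST, 6.63 in 2DG+Phen and 7.77 in 2DG, and at 5.76 in CC, 7.36 in VST, 6.76 in Phen and 8.22 in control. The 2DG+CC array was the highest and the CC array the lowest, with −2.46 for CC and −1.46 for Phen from control, and 1.61 for 2DG+CC, −1.31 for 2DG+VST and −1.14 for 2DG+Phen from 2DG. Its other 2 probe sets, dimmer on most arrays, were instead higher with VST and Phen in 2DG, by 3.01 and 2.46 on one and 2.65 and 2.01 on the other, which passed the expression limit through the 2DG+VST array alone. With CC in normal medium the first of them gave −0.64, and the second was not above background in CC or in control. TRA2B stood at 12.63 in 2DG+CC, 8.79 in 2DG+VST, 8.58 in 2DG+Phen and 11.38 in 2DG, and at 11.24 in CC, 11.46 in VST, 11.05 in Phen and 11.98 in control. Its values with VST and Phen in 2DG were far below the other 6, at −2.59 and −2.80 from 2DG, and 2DG+CC was the highest at 1.25. Here too the other probe sets differed: they gave 0.78 and 0.70 in 2DG+VST and 0.30 and 0.04 in 2DG+Phen, while with CC in 2DG they were higher like the first, by 2.08 and 2.99. The lower TRA2B and TRA2A values with VST and Phen in 2DG were thus read on the brightest of 3 probe sets each.

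SRSF3, which also promotes mRNA export, was −1.36 from 2DG in 2DG+CC and within 2-fold in the other comparisons on its brightest probe set. A nearly equal one gave −1.30 in 2DG+CC, and −0.94 with VST and −0.90 with Phen from control. The dimmest gave −2.20 in 2DG+CC, and −1.08 with VST and −1.20 with Phen, past 2-fold. SRSF4 lay between 8.15 and 9.02 on the 8 arrays.

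**Figure D2:**
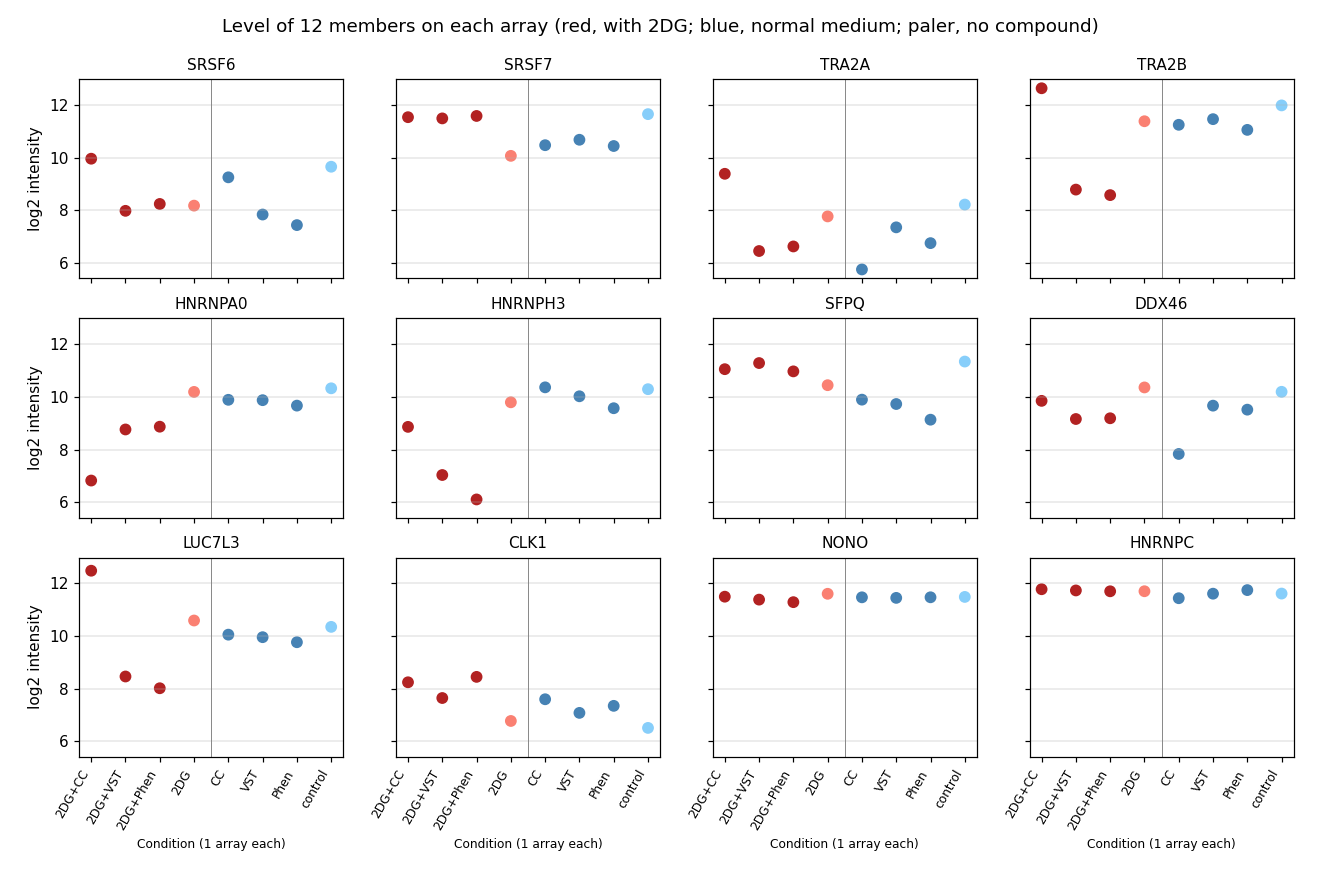
Log2 intensity (vertical axis) of 12 members on each of the 8 arrays (horizontal axis), 1 point per array, with the 4 arrays in 2DG left of the grey line and the 4 in normal medium right of it. TRA2B and LUC7L3 are highest in 2DG+CC (12.63 and 12.47) and lowest in 2DG+Phen (8.58 and 8.02), HNRNPH3 is lowest in 2DG+Phen (6.11), HNRNPA0 is lowest in 2DG+CC (6.83), and NONO and HNRNPC stay level.

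Of 19 hnRNPs listed, 18 were measured. At least 2-fold lower were 1 with 2DG, 2 with CC, 0 with VST and 1 with Phen, and 0 were higher than control with any of these 4 treatments. Between 1.90% and 3.88% of all genes passed 2-fold in each direction in these comparisons. Within 2DG, 3 hnRNPs were higher and 1 lower with CC, 0 and 2 with VST, and 2 and 2 with Phen. The shares of all genes there were 8.33% and 25.4%, 4.09% and 20.0%, and 4.84% and 21.8%. Within 2-fold over all 8 arrays, on their brightest probe sets, were HNRNPC, HNRNPH1, HNRNPK, HNRNPM, HNRNPR, HNRNPU, HNRNPUL1 and PTBP1, the polypyrimidine tract repressor of exons. HNRNPC, which coats nascent transcripts at uridine tracts, lay between 11.43 and 11.77.

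HNRNPH3, a member of the hnRNP H family that binds runs of G, stood at 8.86 in 2DG+CC, 7.04 in 2DG+VST, 6.11 in 2DG+Phen and 9.79 in 2DG, and at 10.36 in CC, 10.02 in VST, 9.57 in Phen and 10.29 in control. The 2DG+VST and 2DG+Phen arrays were below the other 6, by −2.76 and −3.68 from 2DG, and 2DG+CC differed by −0.93. All 4 HNRNPH3 probe sets gave this, between −2.76 and −2.05 in 2DG+VST and between −3.68 and −2.31 in 2DG+Phen. HNRNPA0, a minor hnRNP that binds AU-rich RNA, stood at 6.83 in 2DG+CC, 8.76 in 2DG+VST, 8.87 in 2DG+Phen and 10.18 in 2DG, and at 9.89 in CC, 9.87 in VST, 9.67 in Phen and 10.32 in control. It was lower than 2DG with all 3 compounds and most with CC, at −3.36 for 2DG+CC, −1.42 for 2DG+VST and −1.32 for 2DG+Phen. A dim probe set gave −3.09, −1.51 and −1.41 for these, but the remaining one gave 0.40, 0.30 and 0.27, short of 2-fold and above 0.

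HNRNPA1, which represses exons and is autoregulated by splicing, stood at 12.77 in 2DG+CC, 11.84 in 2DG+VST, 12.81 in 2DG+Phen and 11.02 in 2DG, and at 10.59 in CC, 11.07 in VST, 10.80 in Phen and 10.24 in control. Its brightest probe set, of a kind that may also read related sequences, was highest in 2DG+Phen and 2DG+CC, with 1.79 and 1.75 from 2DG, and a much dimmer one, past the expression limit in 2DG+CC alone, gave −0.78 and 1.12. HNRNPA1 has many processed pseudogenes, so its values are uncertain: 2 probe sets that the annotation shares with them lay between 12.73 and 13.04 and between 12.58 and 12.96. HNRNPA2B1, a close relative, stood at 11.19 in 2DG+CC, 11.58 in 2DG+VST, 11.32 in 2DG+Phen and 11.44 in 2DG, and at 10.84 in CC, 11.57 in VST, 11.60 in Phen and 11.99 in control. CC was its lowest array, −1.15 from control, while a second probe set was 1.5 higher there, the opposite direction. HNRNPA3 stood at 10.34 in 2DG+CC, 9.88 in 2DG+VST, 9.28 in 2DG+Phen and 9.01 in 2DG, and at 9.68 in CC, 9.56 in VST, 9.54 in Phen and 10.07 in control. It was −1.06 from control in 2DG, where its other probe sets gave −0.53 and −0.30, short of 2-fold. It was 1.33 from 2DG in 2DG+CC, where its other probe sets gave 2.98 and −0.28. The 3 probe sets it shares with a pseudogene were instead lower with CC in normal medium, by −1.07, −1.45 and −1.54. They gave −0.16, −0.01 and −0.18 in 2DG from control, and −0.26, −0.65 and −0.48 in 2DG+CC from 2DG.

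HNRNPD, known as AUF1 for its binding to AU-rich elements that set mRNA decay, stood at 11.46 in 2DG+CC, 11.60 in 2DG+VST, 11.64 in 2DG+Phen and 11.67 in 2DG, and at 10.41 in CC, 11.91 in VST, 11.74 in Phen and 12.15 in control. CC was the 1 array apart, at −1.74 from control, and 5 of its 6 probe sets were at least 2-fold lower there, between −1.85 and −1.51. The sixth, 0.96 with CC, was higher than control on the 2DG, VST and Phen arrays as well, by 1.39, 1.54 and 1.22. PTBP2, the neuronal relative of PTBP1, stood at 8.31 in 2DG+CC, 6.58 in 2DG+VST, 7.21 in 2DG+Phen and 6.10 in 2DG, and at 6.91 in CC, 6.37 in VST, 6.36 in Phen and 6.96 in control. Its 2DG+CC array was the highest, 2.21 from 2DG, followed by 2DG+Phen at 1.11. HNRNPAB was −1.01 from control with Phen. On their brightest probe sets HNRNPF and HNRNPL stayed within 2-fold of the comparison array throughout. A second HNRNPL probe set gave −1.03 with CC from control, where the brightest gave −0.78.

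Of the DBHS proteins, which build paraspeckles (nuclear bodies on the RNA NEAT1) and act in splicing and transcription, SFPQ passed 2-fold with CC, VST and Phen and NONO in no comparison. SFPQ stood at 11.05 in 2DG+CC, 11.28 in 2DG+VST, 10.96 in 2DG+Phen and 10.44 in 2DG, and at 9.89 in CC, 9.73 in VST, 9.13 in Phen and 11.33 in control. Control was the highest array and Phen the lowest, with −1.44 for CC, −1.61 for VST and −2.20 for Phen, and −0.90 for 2DG. A second probe set followed it (−1.58, −1.54 and −2.03), but another gave 1.60, 0.65 and 1.28, opposite in direction. In 2DG+CC this probe set gave 2.78 and the dimmest one, at 8.82, gave 4.14, where the brightest gave 0.61. The dimmest one passed the expression limit through that array alone. NONO, the partner of SFPQ, lay between 11.28 and 11.60 on all 8 arrays, and PSPC1 was −1.07 from control with Phen.

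The DEAD-box helicases remodel RNA and protein contacts in the spliceosome. DDX46, the counterpart of yeast Prp5 that admits U2 snRNP to the branch point, stood at 9.85 in 2DG+CC, 9.16 in 2DG+VST, 9.19 in 2DG+Phen and 10.35 in 2DG, and at 7.83 in CC, 9.66 in VST, 9.51 in Phen and 10.19 in control. CC was its lowest array by far, at −2.36 from control, and a second probe set gave −2.13; in 2DG+CC they gave −0.51 and −0.24. The 2DG+VST and 2DG+Phen arrays differed by −1.20 and −1.17 from 2DG, but by −0.17 and −0.50 on the second probe set, which instead gave −1.05 with VST and −1.34 with Phen from control. DDX5 (p68) stood at 8.38 in 2DG+CC, 6.80 in 2DG+VST, 6.37 in 2DG+Phen and 6.64 in 2DG, and at 7.88 in CC, 5.66 in VST, 6.12 in Phen and 7.40 in control, read by a single dim probe set. VST and Phen were its low arrays in normal medium, at −1.74 and −1.28, and 2DG+CC its highest, at 1.74 from 2DG. The bright DDX5 probe set, left out because the annotation also gives it 2 microRNAs, lay within 2-fold over all arrays, between 11.27 and 11.70, so that these DDX5 differences are those of the dim probe set alone. Its paralog DDX17 (p72) stood at 9.00 in 2DG+CC, 9.60 in 2DG+VST, 9.60 in 2DG+Phen and 10.70 in 2DG, and at 10.28 in CC, 10.01 in VST, 10.55 in Phen and 10.01 in control. DDX17 was lower than 2DG with each compound, at −1.70 for 2DG+CC, −1.11 for 2DG+VST and −1.10 for 2DG+Phen.

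The 7 proteins of U2 snRNP and branch site recognition mark the branch point and the end of the intron. Of all genes, 48.7% passed 2-fold in none of the 7 comparisons, and 25.4% were lower in 2DG+CC. On the brightest probe sets, 1 of the 7 members passed 2-fold, and in 1 comparison, 2DG+CC. That was SF3B3, a scaffold of the SF3b complex, which stood at 6.92 in 2DG+CC, 8.04 in 2DG+VST, 8.14 in 2DG+Phen and 8.40 in 2DG, and at 7.52 in CC, 8.16 in VST, 8.28 in Phen and 8.28 in control. Its 2DG+CC array was the lowest, −1.48 from 2DG, but the second SF3B3 probe set was 1.83 there, the opposite direction. On their brightest probe sets SF3A3, SF3B1, SF3B2, U2AF1 and U2AF2 lay within 2-fold over all 8 arrays. Dimmer ones passed 2-fold in 2DG+CC, at 1.18 and 1.26 for SF3B1, 1.73 for U2AF2 and 1.05 for U2AF1. The U2AF1 one also gave 1.79 in 2DG+VST, and it passed the expression limit through the 2DG+VST array alone. SF3B1, which grips the branch point adenosine, lay between 10.53 and 11.46, and U2AF1, which reads the AG at the end of an intron, between 10.59 and 11.34. SF3A1 stayed within 2-fold of the comparison array in all 7 comparisons.

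SR-related and nuclear speckle proteins carry RS-rich stretches without being classical SR proteins. Against control 0 of 7 passed 2-fold in either direction with 2DG, CC, VST or Phen. Between 1.90% and 3.88% of all genes did so in each direction. In 2DG+CC, 4 of the 7 were higher and 0 lower, in 2DG+VST 1 and 1, and in 2DG+Phen 0 and 3. The shares of all genes were 8.33% and 25.4%, 4.09% and 20.0%, and 4.84% and 21.8% in this order. All 7 lay above 0 in 2DG+CC, where 60.3% of all genes lay below it. The smallest was 0.64 (SON), which is under the poly-A shift of 0.87 there.

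LUC7L3, a relative of the yeast U1 snRNP protein Luc7 that helps to choose 5′ splice sites, stood at 12.47 in 2DG+CC, 8.46 in 2DG+VST, 8.02 in 2DG+Phen and 10.58 in 2DG, and at 10.05 in CC, 9.95 in VST, 9.76 in Phen and 10.34 in control. The 2DG+CC array was the highest and 2DG+VST and 2DG+Phen were the lowest, at 1.89, −2.12 and −2.57 from 2DG. Its 2 next brightest probe sets gave 1.74 and 2.05 in 2DG+CC, −2.39 and −1.97 in 2DG+VST, and −2.45 and −2.32 in 2DG+Phen. Unlike TRA2B, LUC7L3 thus gave the same picture on each of its 3 bright probe sets.

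RBM25, which acts on 5′ splice site choice with U1 snRNP, stood at 10.81 in 2DG+CC, 8.31 in 2DG+VST, 9.11 in 2DG+Phen and 8.52 in 2DG, and at 7.94 in CC, 8.37 in VST, 8.40 in Phen and 8.48 in control. Its 2DG+CC array was apart from the other 7, at 2.29 from 2DG, with 2.18 and 2.47 on the 2 next brightest of its 7 probe sets. In 2DG+VST the 7 probe sets did not move together: 2 gave −2.69 and −2.56, the brightest gave −0.22, and a dim 1 gave 1.39. The dimmest, not above background in 2DG, was at least 3.03 higher, and it passed the expression limit through the 2DG+VST array alone. RBM39, a relative of U2AF2, stood at 10.42 in 2DG+CC, 9.08 in 2DG+VST, 9.70 in 2DG+Phen and 9.55 in 2DG, and at 9.92 in CC, 9.86 in VST, 9.21 in Phen and 9.81 in control. The brightest probe set stayed within 2-fold, but a nearly equal one gave −1.08 in 2DG+CC, −1.85 in 2DG+VST and −1.27 in 2DG+Phen, while 2 dimmer ones were 1.64 and 2.13 in 2DG+VST.

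PNISR, an SR-like protein of speckles, stood at 9.46 in 2DG+CC, 7.26 in 2DG+VST, 6.19 in 2DG+Phen and 8.10 in 2DG, and at 7.51 in CC, 7.45 in VST, 7.59 in Phen and 7.47 in control. It was high in 2DG+CC (1.36 from 2DG) and lowest in 2DG+Phen (−1.91). A probe set of like brightness gave 0.86, −1.97 and −2.44 in 2DG+CC, 2DG+VST and 2DG+Phen. Of the dimmer ones, 1 gave −0.12, 0.79 and 0.69 in this order. Another gave 1.59, −0.44 and −1.51, and it passed the expression limit through the 2DG+CC array alone. The dimmest gave −0.25 in 2DG+CC and −2.82 in 2DG+VST, and was not above background in 2DG+Phen. SRRM2, a scaffold of speckles, stood at 8.77 in 2DG+CC, 9.05 in 2DG+VST, 8.57 in 2DG+Phen and 7.83 in 2DG, and at 7.61 in CC, 7.79 in VST, 8.00 in Phen and 7.49 in control. The 3 arrays with 2DG and a compound were its highest, with 0.94 in 2DG+CC, 1.22 in 2DG+VST and 0.74 in 2DG+Phen from 2DG, while the second brightest probe set stayed short of 2-fold at 0.48, 0.46 and 0.58, and a dim one gave 2.05, 3.08 and 1.97. SRRM1, which bridges enhancer-bound SR proteins, was 1.28 in 2DG+CC, and SON, the other scaffold of speckles, was −1.11 in 2DG+Phen.

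The kinases CLK1 and CLK4 lay above control with 2DG, CC, VST and Phen. CLK1 stood at 8.24 in 2DG+CC, 7.65 in 2DG+VST, 8.45 in 2DG+Phen and 6.78 in 2DG, and at 7.60 in CC, 7.08 in VST, 7.35 in Phen and 6.51 in control. Control was its lowest array, with 0.26 for 2DG, 1.09 for CC, 0.57 for VST and 0.84 for Phen, and in 2DG it was higher still with 1.47 in 2DG+CC and 1.67 in 2DG+Phen. CLK4 stood at 5.93 in 2DG+CC, 5.18 in 2DG+VST, 6.32 in 2DG+Phen and 6.01 in 2DG, and at 6.75 in CC, 6.10 in VST, 6.69 in Phen and 5.73 in control. CC and Phen were its 2 highest arrays, at 1.02 and 0.96 from control, near the expression limit. Each kinase was read by 1 expressed probe set, which may match other transcripts.

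**Figure D3:**
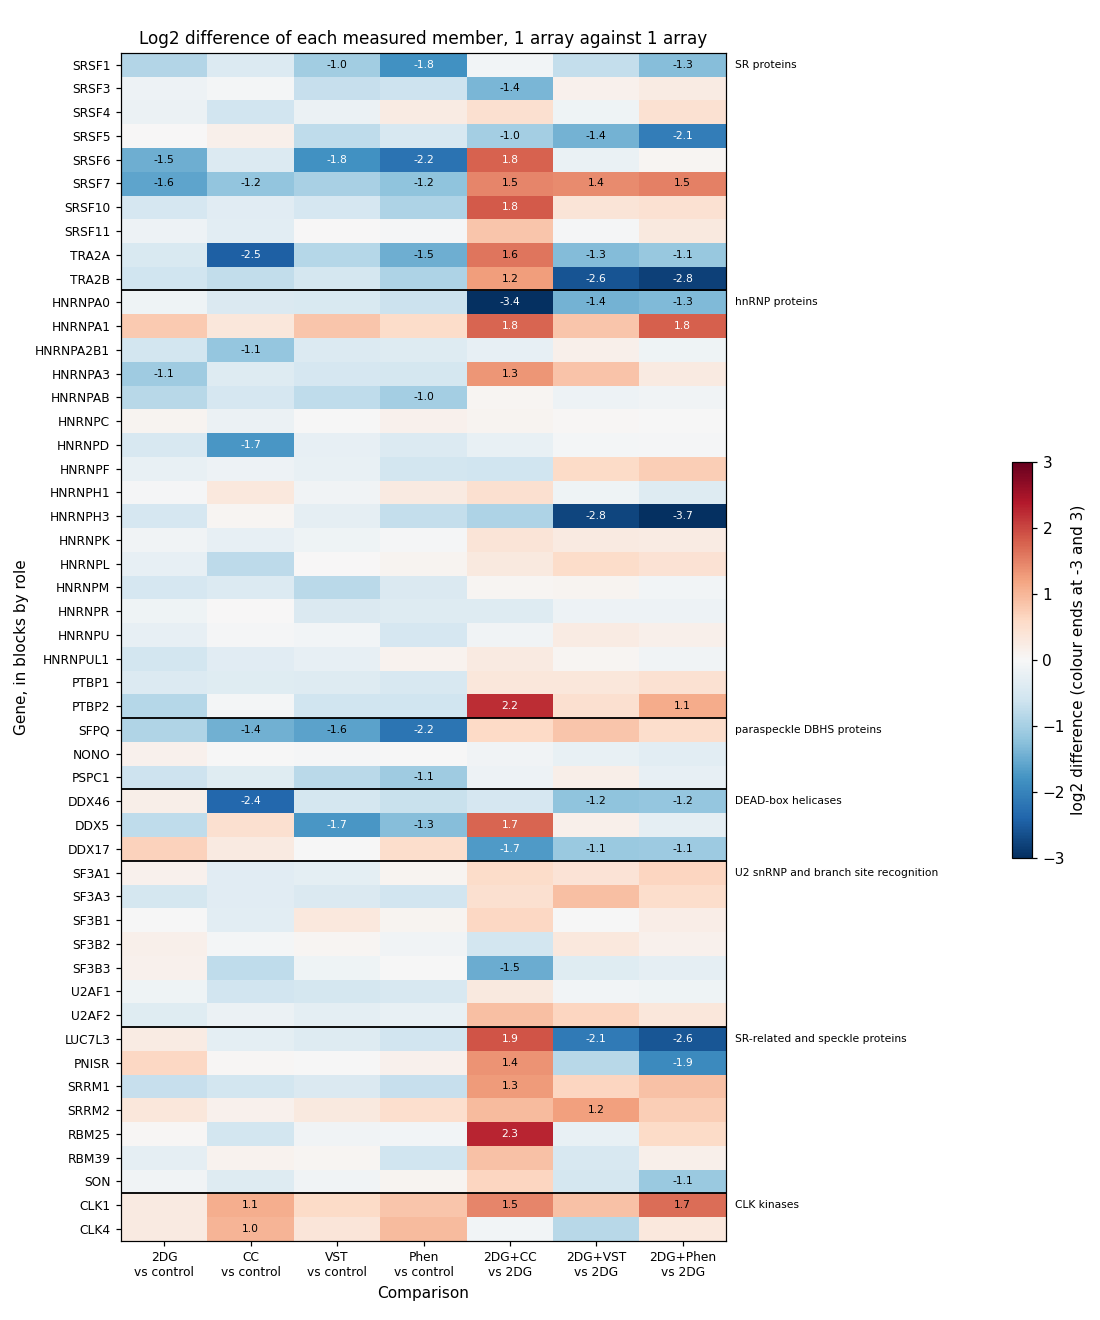
Log2 difference of each of the 50 measured members (vertical axis, in blocks by role) in each of the 7 comparisons (horizontal axis), red higher and blue lower, with the value printed from 2-fold on; colours end at −3 and 3. The SR protein block is mostly blue in the comparisons with control, the block of U2 snRNP and branch site recognition holds 1 printed value (−1.5, SF3B3 in 2DG+CC), and the CLK kinases are red with CC (1.09 and 1.02).

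Of the 50 members, 20 passed 2-fold in none of the 7 comparisons, where 48.7% of all genes did so, and 15 (32.2% of all genes) kept all 8 arrays within 2-fold of each other. Values just past the limit were −1.01 (HNRNPAB, Phen), 1.02 (CLK4, CC) and −1.02 (SRSF5, 2DG+CC), and values just short of it were −0.97 (SRSF7, VST) and 0.96 (CLK4, Phen).

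The 3 genes not measured on their own were read from shared probe sets, which entered no count. SRSF2 (SC35), the SR protein whose antibody marks speckles, shares 3 probe sets with a microRNA. The brightest stood at 10.44 in 2DG+CC, 11.03 in 2DG+VST, 10.86 in 2DG+Phen and 10.93 in 2DG, and at 11.14 in CC, 10.32 in VST, 10.38 in Phen and 11.84 in control. Control was its highest array, with −0.91 for 2DG, −0.69 for CC, −1.52 for VST and −1.46 for Phen. The other 2 gave −1.15 and −1.07 with VST, and −1.05 and −0.81 with Phen. HNRNPH2, another G-run binder, shares its probe set with a read-through transcript and stood at 9.04 in 2DG+CC, 7.89 in 2DG+VST, 7.25 in 2DG+Phen and 9.31 in 2DG, and at 9.44 in CC, 8.95 in VST, 9.28 in Phen and 9.46 in control. Its 2 lowest arrays were 2DG+Phen and 2DG+VST, at −2.06 and −1.42 from 2DG, as for HNRNPH3. DDX39B (UAP56), a helicase of splicing and mRNA export, lay between 9.01 and 10.07 on the brighter of its shared probe sets. PTBP1 shares 5 with a microRNA, of which 1 gave 1.44, 3.15 and 3.02 in 2DG+CC, 2DG+VST and 2DG+Phen, while the others stayed within 2-fold as its own probe set did.

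Differences between probe sets of 1 gene were then counted, since members with several transcript forms may be misjudged from a single probe set. There were 39 members with at least 2 expressed probe sets, with 3.31 each on average, and 3492 such genes in all, with 2.53. Counted as disagreeing were genes whose probe sets lay at least 1 log2 unit apart in a comparison. These were 7 of the 39 with 2DG, 12 with CC, 9 with VST and 11 with Phen, where the share of all such genes was 6.84%, 7.16%, 8.59% and 7.02%. Within 2DG they were 19 in 2DG+CC, 18 in 2DG+VST and 17 in 2DG+Phen, where the share of all such genes was 28.8%, 26.4% and 30.3%.

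The number of probe sets moves with this count. Among genes with 2 probe sets, 1 of 12 members (8.33%) disagreed in 2DG+CC, against 20.6% of all such genes, whereas with 3 probe sets 9 of 14 members (64.3%) did, against 37.9%, and with 4 or more 9 of 13 (69.2%), against 54.1%. When the 2 brightest probe sets alone were compared, an alternative added after seeing the data, 9 of 39 members (23.1%) disagreed in 2DG+CC against 19.2% of all genes, 8 (20.5%) in 2DG+VST against 18.1%, and 6 (15.4%) in 2DG+Phen against 21.2%. Within 2DG the members' shares were then near those of all genes. Against control 4 of 39 (10.3%) disagreed with CC, against 4.04% of all genes. The shares were 2.56% with 2DG, 2.56% with VST and 5.13% with Phen, against 3.41%, 4.81% and 3.58% of all genes. Probe sets of 1 gene passed 2-fold in opposite directions for HNRNPD with 2DG, for HNRNPA2B1 and SFPQ with CC, and for SFPQ with Phen. They did so for SF3B3 and SRSF5 in 2DG+CC, and for RBM25, RBM39, SRSF5 and TRA2A in both 2DG+VST and 2DG+Phen. The share of all such genes was 0.03% with 2DG, 0.20% with CC, 0.14% with VST, 0.09% with Phen, 1.78% in 2DG+CC, 3.38% in 2DG+VST and 3.58% in 2DG+Phen. The SRSF5 probe set higher in 2DG+CC was not above background in 2DG, so that it was at least 0.39 higher. Of the 140 expressed probe sets of the members, 11 passed the expression limit on 1 array alone. They entered the counts of disagreement, where a probe set kept through 1 high array brings a difference with it. The opposite directions of SRSF5 and RBM25 rested on such probe sets. The shares of all genes were counted by the same rule. The values on single probe sets do not show which exon, intron or transcript end each one reads, as no probe sequences were used here.

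**Figure D4:**
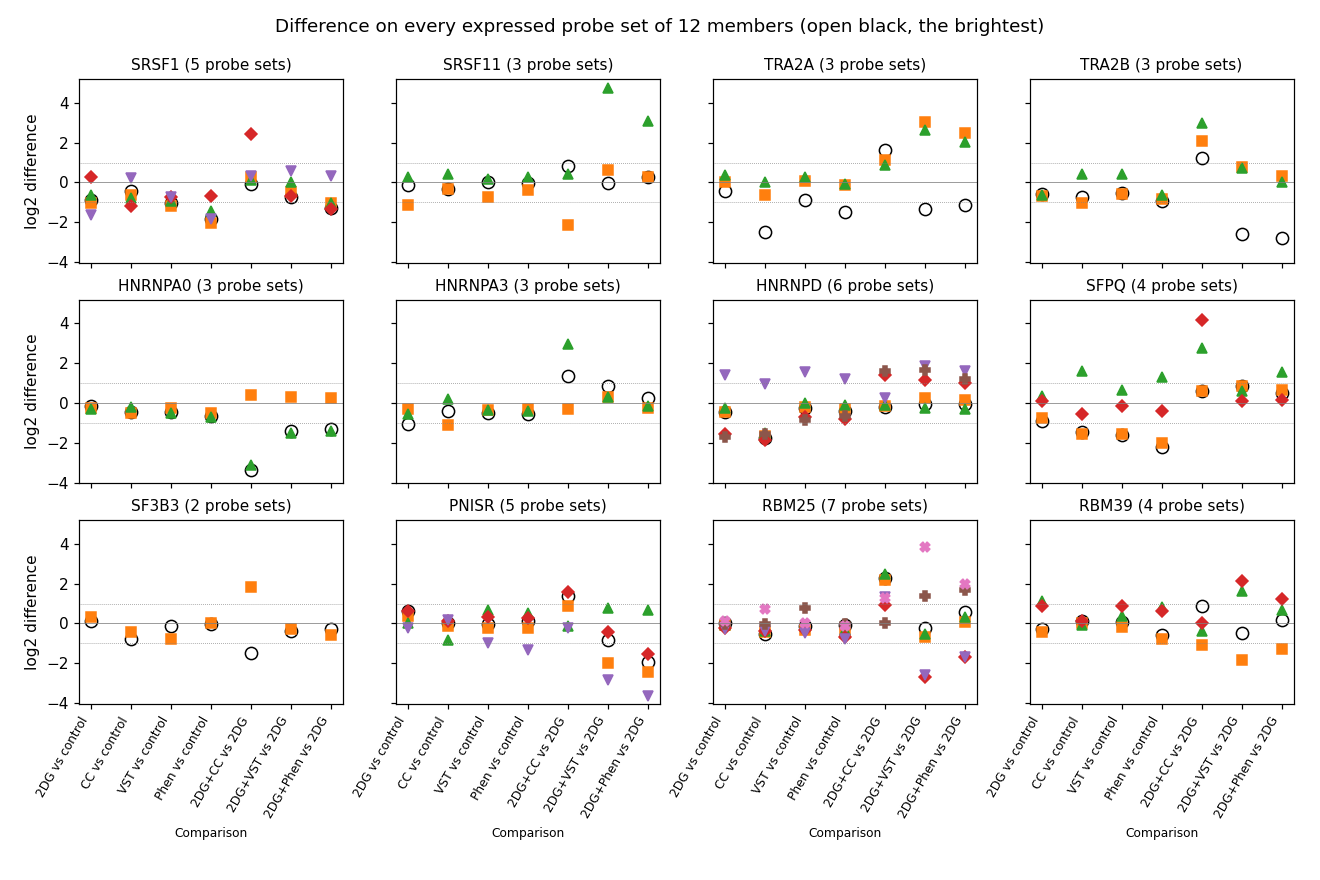
Log2 difference (vertical axis) in each of the 7 comparisons (horizontal axis) on every expressed probe set of 12 members, 1 symbol per probe set, with the brightest as an open black circle and dotted lines at 2-fold. In 2DG+VST and 2DG+Phen the brightest TRA2A and TRA2B probe sets are below 0 (−1.31 and −1.14, −2.59 and −2.80) and the others above it, while in CC 5 of 6 HNRNPD probe sets lie together between −1.85 and −1.51.

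Upstream sequences are shown for 4 members that carry a pattern within 2DG on their brightest probe sets. TRA2B and LUC7L3 were high in 2DG+CC and low in 2DG+VST and 2DG+Phen, HNRNPH3 was low with VST and Phen, and HNRNPA0 was lowest with CC. Other probe sets of TRA2B and HNRNPA0 did not all follow. Each sequence is the 250 bases before the RefSeq transcription start (GRCh38.p14), 5′ to 3′ on the gene's strand, and capitals mark matches to any of the 8 motifs searched.
TRA2B, chr3:185938015-185938264, minus strand: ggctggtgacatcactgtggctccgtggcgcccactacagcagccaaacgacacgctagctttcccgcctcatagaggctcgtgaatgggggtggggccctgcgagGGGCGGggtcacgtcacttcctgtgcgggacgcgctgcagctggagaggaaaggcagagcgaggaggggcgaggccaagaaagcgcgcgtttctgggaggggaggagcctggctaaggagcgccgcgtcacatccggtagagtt
LUC7L3, chr17:50719353-50719602, plus strand: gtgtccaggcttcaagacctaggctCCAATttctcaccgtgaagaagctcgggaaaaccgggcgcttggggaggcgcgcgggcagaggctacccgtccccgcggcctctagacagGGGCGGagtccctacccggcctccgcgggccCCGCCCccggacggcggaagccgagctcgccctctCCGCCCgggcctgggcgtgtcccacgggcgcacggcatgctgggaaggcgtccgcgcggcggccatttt
HNRNPH3, chr10:68331443-68331692, plus strand: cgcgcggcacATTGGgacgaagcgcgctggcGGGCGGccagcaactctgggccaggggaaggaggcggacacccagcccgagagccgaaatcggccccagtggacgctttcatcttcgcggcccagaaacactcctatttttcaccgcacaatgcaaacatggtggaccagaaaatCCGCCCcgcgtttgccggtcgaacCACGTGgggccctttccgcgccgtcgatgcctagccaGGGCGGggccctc
HNRNPA0, chr5:137754364-137754613, minus strand: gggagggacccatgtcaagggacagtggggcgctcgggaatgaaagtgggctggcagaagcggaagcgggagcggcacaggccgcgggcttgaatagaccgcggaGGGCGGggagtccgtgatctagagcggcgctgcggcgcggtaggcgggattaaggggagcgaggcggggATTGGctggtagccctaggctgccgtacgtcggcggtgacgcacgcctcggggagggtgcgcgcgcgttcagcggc

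The motifs were searched by exact letters on both strands, and overlapping matches all counted. They were the CCAAT box (CCAAT), the GC box (GGGCGG), the E box (CACGTG), the cyclic AMP response element (TGACGTCA), the ETS site (CCGGAAGT), the TATA box (TATAAA), the ATF4-C/EBP site (TGATGCAA) and the NRF1 core (GCATGCG). The 4 sequences each held a GC box, and LUC7L3, HNRNPH3 and HNRNPA0 held a CCAAT box, but HNRNPH3 was the 1 with an E box. RefSeq promoters were matched for 47 of the 53 members, those of SRSF2, TRA2A, HNRNPA1, SFPQ, SF3B3 and RBM39 being absent from the table used. A GC box was in 61.7% of the 47, 42.3% of all 27305 promoters and 69.1% of those of expressed genes, and a CCAAT box in 38.3%, 33.0% and 35.7%. The ETS site was in 10 of the 47 (21.3%), against 3.64% of all promoters and 8.76% of those of expressed genes, and the E box in 9 (19.1%), against 6.49% and 9.62%. A TATA box was in 14.9%, 11.1% and 4.87%, and the NRF1 core in 6.38%, 3.57% and 6.26%. The cyclic AMP response element and the ATF4-C/EBP site were in 0 of the 47, and in 1.77% and 0.82% of all promoters. A match describes the letters only.

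Other splicing genes were counted over 10 lists of the pathway. Of 114 such genes 95 were measured, and against control those at least 2-fold higher and lower were 0 and 0 with 2DG, 1 and 1 with CC, 1 and 0 with VST, and 1 and 0 with Phen. Between 1.90% and 3.88% of all genes passed 2-fold in each direction in these comparisons. Within 2DG the other splicing genes higher and lower were 8 and 7 with CC, 1 and 3 with VST, and 3 and 2 with Phen. The shares of all genes there were 8.33% and 25.4%, 4.09% and 20.0%, and 4.84% and 21.8%. The 1 higher with CC, VST and Phen was MALAT1, the long noncoding RNA of nuclear speckles, with 1.18 for CC, 1.14 for VST and 1.53 for Phen. MBNL2, a muscleblind regulator of exon choice, was −2.05 in 2DG+CC, −1.92 in 2DG+VST and −2.06 in 2DG+Phen. TAF15, an RNA-binding protein of the FET family, was −2.00 in 2DG+VST and −2.32 in 2DG+Phen. Of the remaining CLK kinases, CLK2 was −1.95 and CLK3 1.51 in 2DG+CC. PRPF18, a factor of the second splicing step, was 1.02, 1.10 and 1.71 in 2DG+CC, 2DG+VST and 2DG+Phen.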

How the data were processed

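The authors deposited 1 table of log2 values, made from Affymetrix U133 Plus 2.0 arrays (1 per condition, labelled from 100 ng of total RNA) with RMA, which corrects background, normalizes between arrays and summarises probe sets; its software version is not given in the sources used here. Normalization across arrays assumes similar overall signal, so a general fall in RNA would be hidden. No step was added before differences were taken. The 62 control probe sets were left out, as were probe sets with several gene symbols (1801) or none (11777) in the platform annotation. There were 7 comparisons of 1 array with 1 array and no test. All 8 arrays' values are given for the members with the 3 highest and 3 lowest differences past 2-fold in any comparison and those whose probe sets lay 2 log2 units apart. For lists of other genes, up to 2 with the largest difference were named. Members, roles and lists were chosen with earlier results of these data known. Alternatives were fold limits of 1.5 and 3, expression limits of 7 and none, centring, quantile normalization, poly-A scaling, the median over probe sets, leaving out probe sets ending in _s_at or _x_at (made to match several transcripts), and a distance of 1.5. Calculations were tested on simulated data. Python 3.11.15, numpy 2.4.6, pandas 2.3.3 and matplotlib 3.10.9 were used.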

Additional observations from a re-analysis of the deposited data

Results flagged for a closer look

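For 2 members, the differences with CC within 2DG and in normal medium were opposite and both at least 2-fold. TRA2A differed by 1.61 in 2DG+CC from 2DG and by −2.46 in CC from control, 4.07 apart. SRSF7 differed by 1.47 and −1.18 in the same comparisons, 2.64 apart, and with Phen by 1.51 in 2DG+Phen from 2DG and −1.21 in Phen from control, 2.72 apart. With 1 array per condition these differences between media were not tested. On the poly-A scale neither TRA2A nor SRSF7 was 2-fold higher in 2DG+CC. Of the 2 dimmer TRA2A probe sets, one gave 1.15 in 2DG+CC and −0.64 in CC, and the other gave 0.89 in 2DG+CC and was not above background in CC or control. The next brightest SRSF7 probe set gave 0.07 in 2DG+CC and −0.82 in CC.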

How the results depend on the processing

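The counts of members per comparison, 147 under an alternative, stayed within 1.5 times of the reported count in 88 and moved further in 59. With a limit of 1.5-fold, members higher and lower were 3 and 11 with 2DG, 1 and 12 with VST and 2 and 17 with Phen. The shares of all genes were 10.8% and 7.30%, 9.41% and 10.7%, and 9.22% and 10.9%. Those higher were 9 in 2DG+VST and 8 in 2DG+Phen, beside 11.9% and 11.5% of all genes. With 3-fold, members were 0 lower with 2DG (0.26% of all genes), 0 higher and 3 lower with CC (0.90% and 0.40%), and 3 lower with Phen (0.25%). They were 8 higher and 2 lower in 2DG+CC (3.32% and 14.6%), 0 and 3 in 2DG+VST (1.38% and 9.18%), and 2 and 5 in 2DG+Phen (1.97% and 10.1%). With CC, 1 member was higher under an expression limit of 7, centring or quantile normalization, 0 on the poly-A scale or without probe sets ending in _s_at or _x_at, and 4 by the median over probe sets. Between 2.91% and 4.41% of all genes were higher with CC under these. With Phen, 1 was higher under centring or quantile normalization, beside 2.98% and 3.10% of all genes. Centring gave 7 higher in 2DG+VST and 7 higher and 7 lower in 2DG+Phen. The poly-A scale gave 9 lower with 2DG, 3 higher and 13 lower in 2DG+CC, and 0 higher in 2DG+VST. The median over probe sets gave 7 higher in 2DG+Phen, beside 5.15% of all genes. Without _s_at and _x_at probe sets, 33 members were left. Of these, 1 was higher and 5 lower with 2DG (3.17% and 2.94% of all genes), and 3 were lower with CC (3.16%). In 2DG+CC 14 were higher and 3 lower (9.99% and 28.7%), and in 2DG+VST 6 and 5 (5.47% and 22.6%). In 2DG+Phen 4 were higher and 6 lower (5.76% and 24.98%).

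The members' median turned to −0.0615 in 2DG+VST under quantile normalization, and on the poly-A scale to −0.45 in 2DG+CC, −0.49 in 2DG+VST and −0.22 in 2DG+Phen, whose shift follows from the scaling itself. Of the 67 single values past 2-fold, 51 were still past it on the poly-A scale, 58 with centring, 65 with quantile normalization and 46 by the median over probe sets, and 37 of the 50 left without _s_at and _x_at probe sets. The median over probe sets turned HNRNPA2B1 (1.31) and SFPQ (0.0105) with CC, PSPC1 with Phen (0.63), SF3B3 in 2DG+CC (0.17), TRA2A in 2DG+VST (2.27) and 2DG+Phen (2.45), and HNRNPA0 in the same (0.0591 and 0.16). Without _s_at and _x_at probe sets, SRSF10 in 2DG+CC was −0.26, SF3B3 there 1.83, and in 2DG+Phen SRSF1 was 0.35 and HNRNPA1 −0.78. The values without _s_at and _x_at probe sets come from another probe set of the same gene. The median was taken over the levels on each array. Its differences can thus set 1 probe set against another and match that of no single probe set.

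Members whose probe sets disagree were 4 with 2DG, 5 with CC, 3 with VST and 5 with Phen at a distance of 1.5, where 1.46%, 2.75%, 2.29% and 1.86% of all such genes did. Without _s_at and _x_at probe sets, 12 members were left, of which 2, 6, 4 and 4 disagreed in the same order (8.11%, 9.86%, 10.5% and 8.34% of all genes) and 4 (33.3%) in each of 2DG+CC, 2DG+VST and 2DG+Phen, near the 35.2%, 31.4% and 37.2% of all genes. With the 2 brightest probe sets alone they were 1 with 2DG, 4 with CC, 1 with VST, 2 with Phen, 9 in 2DG+CC, 8 in 2DG+VST and 6 in 2DG+Phen.

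No paired analysis was possible because each condition has 1 array. No array was left out, for the same reason. Dim probe sets near background give bounds only, and differences near 2-fold rest on single arrays.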
